A study of Mus musculus with 6 samples.

Results

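The levels of 10 cyclic nucleotide phosphodiesterase genes, of 54752 genes counted by RNA-seq, were followed in NIH/3T3 cells, an immortalized mouse embryonic fibroblast line. The genes were chosen by name, with earlier results of these data known. They were Pde1a, Pde1b and Pde1c, Pde3a and Pde3b, Pde4b and Pde4d, Pde5a, Pde7b, and Pde10a. The cells were cultured for 72 h in complete DMEM with PBS (vehicle group), with TGF-β1 at 1 ng/ml and DMSO (TGF-β1 + DMSO group), or with TGF-β1 at 1 ng/ml and BI6727 at 5 µM (TGF-β1 + BI6727 group). There were 2 libraries in each group. BI6727 is an inhibitor of the mitotic kinase PLK1, and the study asked how it alters the conversion of fibroblasts to contractile, matrix-producing myofibroblasts that TGF-β1 induces. The vehicle group had PBS and not DMSO, so that TGF-β1 and DMSO cannot be told apart in the comparison with vehicle. In these bulk RNA samples, fewer cells that express a gene and less RNA per cell cannot be told apart either.

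Cyclic AMP and cyclic GMP are second messengers made by adenylyl and guanylyl cyclases, read by protein kinases A and G and by the Epac exchange factors, and removed by phosphodiesterases or by export. The families differ in substrate and control. PDE1 enzymes cleave both nucleotides and are switched on by calcium, PDE3 enzymes cleave cAMP and are inhibited by cGMP, PDE4 and PDE7 enzymes are specific for cAMP, PDE5 is specific for cGMP, and PDE10A cleaves both. In fibroblasts, a rise of cAMP is known to oppose the myofibroblast state.

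The fibroblast markers Vim, Col1a1, Col1a2, Thy1, Fn1 and S100a4 were present in every library. They did not move together: for DMSO against vehicle their log2 fold changes were 0.29, 0.68, -0.66, -0.90, 0.46 and -1.01 in this order. None of them passed the threshold in any comparison. The epithelial markers Epcam and Cdh1 had at most 7 counts and the leukocyte marker Ptprc at most 9. The macrophage marker Cd68 had 66 and 99 counts in vehicle, 52 and 59 with DMSO and 55 and 77 with BI6727, and did not pass the threshold in any comparison. The endothelial marker Cdh5 had 0 and 11 counts in the vehicle libraries, 64 and 36 with DMSO and 22 and 44 with BI6727 (adjusted p = 0.0262 and 0.0633 against vehicle), and Pecam1, the other endothelial marker, had 4 to 24. The part of these markers in the results below was not tested. Acta2, which encodes the smooth muscle actin of myofibroblasts, was at 94.0 ± 6.06 normalized CPM (counts scaled to library size, mean ± SD, n = 2) in the vehicle group, 467 ± 6.02 with DMSO and 333 ± 15.9 with BI6727. It rose with TGF-β1 + DMSO against vehicle (log2 fold change 2.31), and the difference between BI6727 and DMSO (-0.49) had an adjusted p of 0.463. The other smooth muscle genes did not follow it as a group. Cnn1 had 25 and 21 counts in vehicle, 6 and 2 with DMSO and 8 and 14 with BI6727. Its log2 fold change was -2.50 for DMSO against vehicle (adjusted p = 0.0259) and 1.40 for BI6727 against DMSO (adjusted p = 0.715). Tagln had 9 and 6 counts in vehicle, 17 and 33 with DMSO and 21 and 33 with BI6727. Like Acta2 it was higher than in vehicle, with a log2 fold change of 1.71 with DMSO and 1.80 with BI6727. Neither passed the threshold (adjusted p = 0.0637 and 0.0511 with edgeR). Myh11 had at most 2 counts. The second DMSO library stood apart from the first: its counts differed from those of its replicate by a chi-square of 55.4 per degree of freedom, against 6.05 and 5.23 in the vehicle and BI6727 groups. Longer genes were lower in it, with a fitted shift on the log2 scale of -0.08 at the length of Pde1b and of -0.26 to -0.35 at the lengths of Pde5a, Pde4b, Pde4d, Pde3a and Pde10a.

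Pde1b had the largest fitted difference of the members for DMSO against vehicle and for BI6727 against DMSO, though not for BI6727 against vehicle. Sequences before its RefSeq start sites are shown because they differ widely in base composition. The gene lies on the plus strand of mm10 chromosome 15, from 103503034 to 103530052, and RefSeq gives it 3 starts. The 250 bases before the first start (chr15:103502784-103503033) and before the second (chr15:103506876-103507125, within an intron) are given on the gene's strand, 5′ to 3′, with each CpG dinucleotide in capitals.
Pde1b start 1: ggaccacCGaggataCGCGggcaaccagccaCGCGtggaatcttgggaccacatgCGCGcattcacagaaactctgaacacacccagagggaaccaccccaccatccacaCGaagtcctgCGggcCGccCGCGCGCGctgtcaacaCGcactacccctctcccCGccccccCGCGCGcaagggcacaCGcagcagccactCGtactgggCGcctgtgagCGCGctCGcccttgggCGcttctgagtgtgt
Pde1b start 2: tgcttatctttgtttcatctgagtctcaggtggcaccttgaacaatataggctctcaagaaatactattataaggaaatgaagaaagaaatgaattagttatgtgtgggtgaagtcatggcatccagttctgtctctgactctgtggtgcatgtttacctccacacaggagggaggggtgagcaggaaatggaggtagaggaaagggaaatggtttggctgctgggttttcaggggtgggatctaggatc
The window before start 1 held 26 CpG dinucleotides and was 67.2% G or C, and 90.4% of 32851 promoter windows of the same length held fewer CpG. The window before start 2 held 0, and that before the third start held 1. A short stretch just after the start occurred in 2 annotated Gencode transcripts of Pde1b for start 1, in 0 for start 2 and in 1 for start 3. Start 2 thus had no match among those transcripts. Among the other members past the threshold below, the window listed for Pde5a held 22 CpG dinucleotides and that for Pde4d held 1. The Pde5a window (chr3:122728908-122729157) runs past the start of the gene as counted, into the gene. The Pde4d window (chr13:108653927-108654176) lies well within the gene, before an internal start. The counts are per gene, so that the start in use was not measured.

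The motifs below were searched on both strands of the 19 windows that RefSeq gave for 8 of the 10 members, all but Pde3a and Pde3b. The full cAMP response element TGACGTCA, found in 1.55% of all windows, was in 0 of the 19. Its shorter core TGACG, found in 17.8% of all windows and contained in the full element, was in 2. These were the first window listed for Pde4b (chr4:102421305-102421554), which lies well within the gene, and the third listed for Pde1a. The SMAD-binding letters CAGAC, found in 42.2% of all windows, were in 8 of the 19, among them the window of Pde5a. The AP-1 site TGANTCA (6.75% of all windows) was in 1 window, of Pde1c, and the TATA box TATAAA (12.4%) was in 2, of Pde1a. The 3 windows of Pde1b held none of these letters. A match is a description of the letters and not a measured site.

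Pde1b, a calcium-dependent enzyme that cleaves both cyclic nucleotides, had 195 and 254 raw counts in vehicle, 1038 and 934 with TGF-β1 + DMSO and 285 and 370 with TGF-β1 + BI6727. As normalized CPM these were 9.86 and 11.3 in vehicle, 49.5 and 43.9 with TGF-β1 + DMSO, and 15.7 and 15.1 with TGF-β1 + BI6727. The 3 groups did not overlap: both DMSO libraries were highest, both vehicle libraries lowest, and both BI6727 libraries lay between them, nearer to vehicle.

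**Figure D1:**
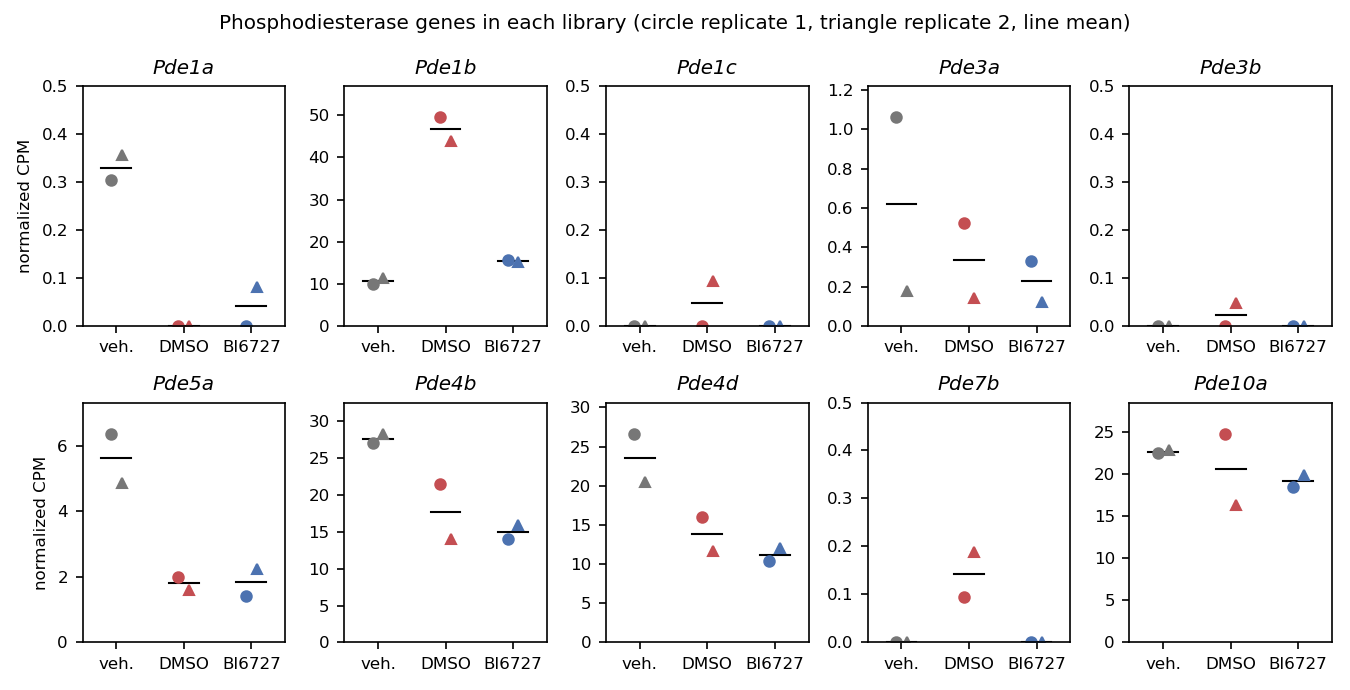
Normalized CPM (y axis, from 0, own scale in each panel) of the 10 phosphodiesterase genes in the vehicle, TGF-β1 + DMSO (DMSO) and TGF-β1 + BI6727 (BI6727) groups; circles are replicate 1, triangles replicate 2 and lines the mean of 2. Pde1b is highest with TGF-β1 + DMSO, at 49.5 and 43.9 CPM, while Pde5a, Pde4b and Pde4d are highest in the vehicle libraries.

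Pde1b rose 4.41-fold with TGF-β1 + DMSO against vehicle (log2 fold change 2.14 ± 0.147 SE, adjusted p = 4.59e-05 with edgeR). Of all genes tested in this comparison, 5.98% passed the threshold, 2.75% with a higher level. Among the 6 members tested, Pde1b was the only one that rose. The call held in each of the 9 other fits, and the log2 fold change was between 2.04 and 2.24 with any 1 library left out.

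The position of Pde1b between the TGF-β1 groups was known when the members were chosen. Pde1b was 3.03-fold lower with BI6727 than with DMSO (log2 fold change -1.60 ± 0.143). Its unadjusted p of 2.29e-06 with edgeR was the smallest of all 14604 genes. Its adjusted p of 0.0227 missed the threshold, as did that of every gene: 0.0% passed with edgeR, 7.13% had an unadjusted p below 0.05, and DESeq2 called 15 genes, or 0.103%. Pde1b and Ccl5, a chemokine gene named here after its values were seen, were the only genes with an adjusted p below 0.05 (0.0137% of those tested). The BI6727 and DMSO groups did not overlap for Pde1b, which was true in either direction of 35.1% of all genes, and of 60.5% and 71.6% for DMSO and BI6727 against vehicle.

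The size of this difference was steady while its adjusted p was not. Over the other fits of all libraries or of the 2 groups, the log2 fold change was between -1.63 and -1.60. The adjusted p ran from 3.60e-14 with DESeq2 to 0.130 in edgeR on these 2 groups alone, and Pde1b passed the threshold in 4 of the 9 fits. Without DMSO replicate 1 the adjusted p was 3.76e-06 and without DMSO replicate 2 it was 1.22e-06, both past the threshold, whereas without BI6727 replicate 1 or 2 it was 0.474 and 0.723. Removing the trend with gene length from each library gave a log2 fold change of -1.63 with an adjusted p of 0.000491, where 0.0753% of all genes passed.

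**Figure D2:**
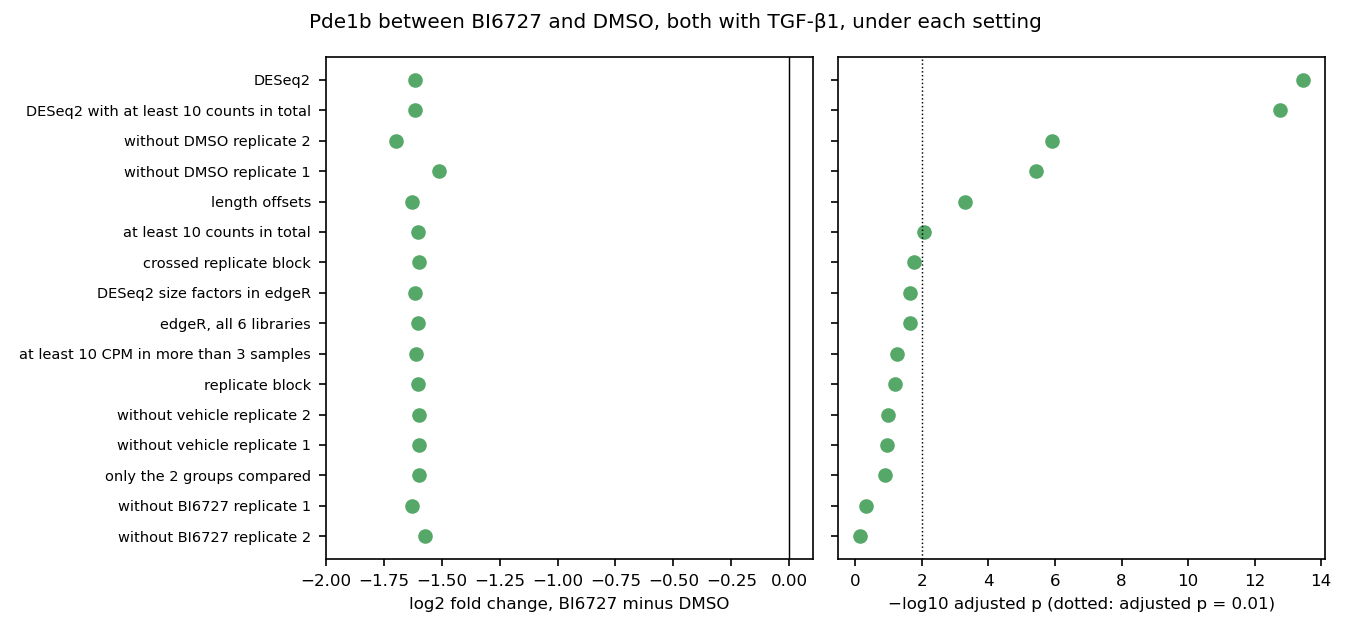
Pde1b between TGF-β1 + BI6727 and TGF-β1 + DMSO under each setting (y axis), with the log2 fold change on the left and −log10 of the adjusted p on the right, where the dotted line marks an adjusted p of 0.01. The log2 fold change stays between -1.70 and -1.51, while the adjusted p lies on both sides of the line.

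Against vehicle, Pde1b with TGF-β1 + BI6727 was 1.45-fold higher (log2 fold change 0.54 ± 0.148, adjusted p = 0.0330) and did not pass the threshold, in this or in any of the 9 other fits. Of all genes tested in this comparison, 6.22% passed, 2.51% with a higher level and 3.71% with a lower one. No exonic base of Pde1b overlapped another gene and no 50-base stretch of its transcripts occurred in another gene's transcripts, so that its counts are not shared by such overlap.

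The other PDE1 genes were near the detection limit. Pde1a had 6 and 8 counts in the vehicle libraries, 0 and 0 with DMSO, and 0 and 2 with BI6727. It was too low to be tested. Its vehicle level of 0.330 CPM was 2.32 times the mean floor of 3 counts in the DMSO libraries. Pde1c had 2 counts in the second DMSO library and 0 in the other 5. Pde1b therefore accounted for nearly all PDE1 transcripts counted.

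Pde5a, the cGMP-specific enzyme on chromosome 3 (122728947 to 122859374, plus strand), was lower in both TGF-β1 groups. It was at 6.37 and 4.86 CPM in vehicle, 2.00 and 1.599 with DMSO, and 1.43 and 2.25 with BI6727. Both vehicle libraries lay above the other 4, which overlapped each other. Pde5a fell 3.11-fold with TGF-β1 + DMSO (log2 fold change -1.64 ± 0.319, adjusted p = 0.00847), where 3.23% of all genes passed with a lower level. With TGF-β1 + BI6727 it fell 3.00-fold against vehicle (-1.59 ± 0.318, adjusted p = 0.00893). Between BI6727 and DMSO its log2 fold change was 0.05 ± 0.341 (adjusted p = 0.981).

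Both calls of Pde5a were close to the threshold. Without vehicle replicate 1, vehicle replicate 2, BI6727 replicate 1 or BI6727 replicate 2, the adjusted p for DMSO against vehicle was 0.0938, 0.0385, 0.0135 and 0.0142, and that for BI6727 against vehicle was 0.0940, 0.0405, 0.0829 and 0.0322. The log2 fold change was -1.82 to -1.43 in the first comparison and -1.97 to -1.32 in the second over all libraries left out. A short stretch of Pde5a, 0.559% of its exonic bases, overlapped another annotated gene.

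Of the cAMP-specific PDE4 genes, only Pde4d passed the threshold, with BI6727 against vehicle. Pde4d, on chromosome 13 (108449948 to 109953461, plus strand), was at 26.6 and 20.5 CPM in vehicle, 16.0 and 11.6 with DMSO, and 10.4 and 12.02 with BI6727. The vehicle libraries were above the other 4. Pde4d fell 2.10-fold with TGF-β1 + BI6727 against vehicle (log2 fold change -1.07 ± 0.209, adjusted p = 0.00805). With TGF-β1 + DMSO its log2 fold change against vehicle was -0.77 ± 0.207 (adjusted p = 0.0314), which did not pass. A difference between the TGF-β1 groups was not detectable (-0.30 ± 0.211, adjusted p = 0.810).

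The call of Pde4d with BI6727 rested on values near both limits of the threshold. It was lost without vehicle replicate 1 (log2 fold change -0.87, adjusted p = 0.0966), vehicle replicate 2 (-1.25, 0.0304), BI6727 replicate 1 (-0.97, 0.0885) or BI6727 replicate 2 (-1.19, 0.0534). With the length trend removed the log2 fold change was -0.98, short of the fold required, at an adjusted p of 0.000955, where 7.22% of all genes passed. Without DMSO replicate 1, Pde4d passed the threshold for DMSO against vehicle as well (-1.02, adjusted p = 0.000287).

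Pde4b, on chromosome 4 (102087543 to 102607259, plus strand), was at 27.0 and 28.3 CPM in vehicle, 21.4 and 14.02 with DMSO, and 13.99 and 15.98 with BI6727. Both vehicle libraries were again highest, and the second DMSO library lay within the BI6727 range. The log2 fold change against vehicle was -0.64 ± 0.202 with DMSO (adjusted p = 0.0561) and -0.88 ± 0.204 with BI6727 (adjusted p = 0.0167), and neither passed.

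Pde10a, a dual-specificity enzyme best known from striatal neurons, lies on chromosome 17 (8525372 to 8986648, plus strand). It was at 22.4 and 22.9 CPM in vehicle, 24.8 and 16.3 with DMSO, and 18.5 and 19.8 with BI6727. The DMSO libraries lay on either side of all the others. Its log2 fold changes were -0.14 ± 0.196 for DMSO against vehicle, -0.24 ± 0.197 for BI6727 against vehicle and -0.10 ± 0.197 for BI6727 against DMSO, with adjusted p-values of 0.642, 0.424 and 0.932. Without the second DMSO library the first of these was 0.14, and with the length trend removed it was 0.06.

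The remaining members had few reads. Pde3a, a cGMP-inhibited cAMP enzyme of muscle and platelets, had 21 and 4 counts in vehicle, 11 and 3 with DMSO, and 6 and 3 with BI6727. In each group the first library was the higher one and the groups overlapped. Its log2 fold changes had standard errors of 0.944 to 1.09 and adjusted p-values of 0.341 to 0.926, and 5.82% of its exonic bases overlapped another gene. Pde3b, the family member best known from adipocytes, had 1 count in the second DMSO library and 0 in the other 5. Pde7b, a cAMP-specific enzyme, had 2 and 4 counts in the DMSO libraries and 0 in the other 4. Pde1a, Pde1c, Pde3b and Pde7b did not pass the filter on low counts and were not tested.

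**Figure D3:**
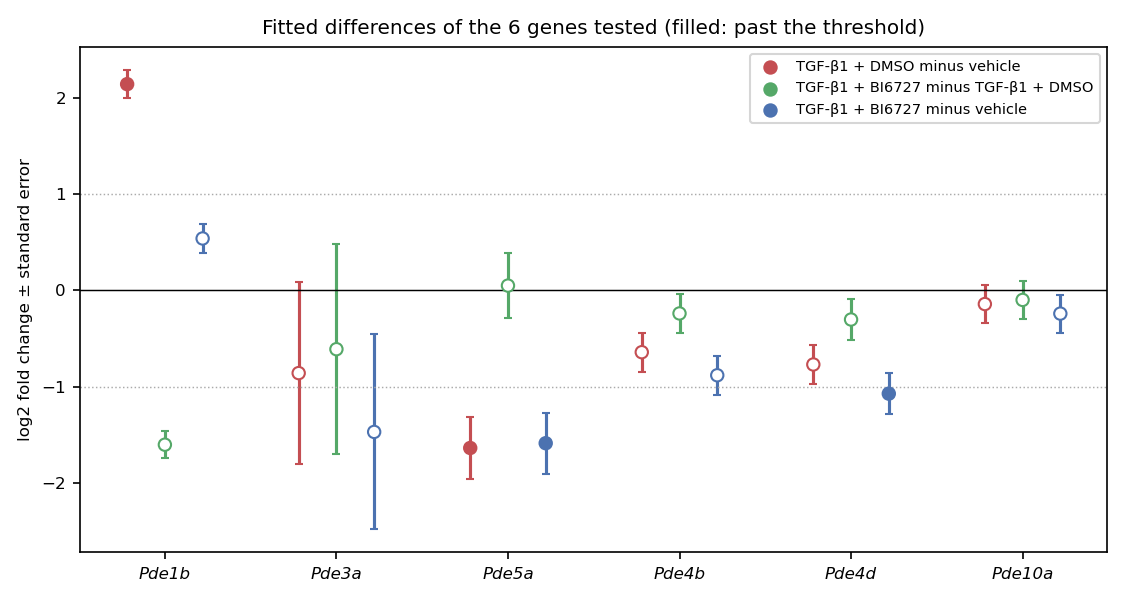
Log2 fold change (y axis, points with bars of ± 1 standard error) of the 6 members tested in the 3 comparisons; filled points passed the threshold and dotted lines mark a fold change of 2. Pde1b is the only member above the upper line, at 2.14, and the only one with a large difference between the TGF-β1 groups, at -1.60, while Pde5a lies near -1.6 against vehicle in both.

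Counted over the members, 2 of the 6 tested passed with TGF-β1 + DMSO against vehicle (1 higher, 1 lower), 0 between BI6727 and DMSO, and 2 with TGF-β1 + BI6727 against vehicle (both lower), beside 5.98%, 0.0% and 6.22% of all genes tested. The median log2 fold change of the 6 was -0.71, -0.27 and -0.98 in these comparisons, beside -0.01, -0.00 and 0.00 over all genes. Both comparisons with vehicle share the vehicle libraries. Of the 6, 5 lay below 0 against vehicle in each, and the exception was Pde1b both times. Of all genes tested, 50.9% and 49.5% lay below 0. The members were chosen with earlier results of these data known, so that these counts and medians are descriptions and not evidence about the family. Of the 14 other PDE genes, 5 were tested and 0 passed, with medians of -0.20, -0.02 and -0.22 in the same comparisons.

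Levels of different genes were compared per kilobase of exon (RPKM). In vehicle, Pde4b was highest of the 10 members at 2.62 ± 0.0865 RPKM (SD, n = 2), followed by Pde4d (1.96 ± 0.360) and Pde1b (1.96 ± 0.193), which did not differ beyond their spread, Pde10a (1.76 ± 0.0244) and Pde5a (0.571 ± 0.108). With TGF-β1 + DMSO, Pde1b came first at 8.66 ± 0.736 RPKM, ahead of Pde4b at 1.68 ± 0.497 and Pde10a at 1.599 ± 0.465, whose ranges overlapped. With TGF-β1 + BI6727, Pde1b was still first at 2.86 ± 0.0746 RPKM, ahead of Pde10a at 1.49 ± 0.0728 and Pde4b at 1.42 ± 0.134, which lay within each other's spread.

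Pde1b thus made up 20.0% and 23.8% of the summed RPKM of the 10 genes in the vehicle libraries, 62.3% and 68.4% with TGF-β1 + DMSO, and 43.4% and 39.4% with TGF-β1 + BI6727. The share of Pde4b was 29.2 ± 1.64% in vehicle, 12.5 ± 1.86% with DMSO and 20.5 ± 1.08% with BI6727. These shares move with the level of Pde1b in the sum, and Pde4b itself was not higher with BI6727 than with DMSO. The sum itself was 8.98 ± 0.207 RPKM in vehicle, 13.3 ± 2.00 with DMSO and 6.91 ± 0.287 with BI6727. Without Pde1b the sum was 7.30 and 6.74 in vehicle, 5.55 and 3.76 with DMSO, and 3.80 and 4.31 with BI6727. The higher total with DMSO than in vehicle was thus carried by Pde1b alone. Between DMSO and BI6727 the sums without Pde1b overlapped. These shares are descriptions of transcript levels, not of enzyme activity.

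**Figure D4:**
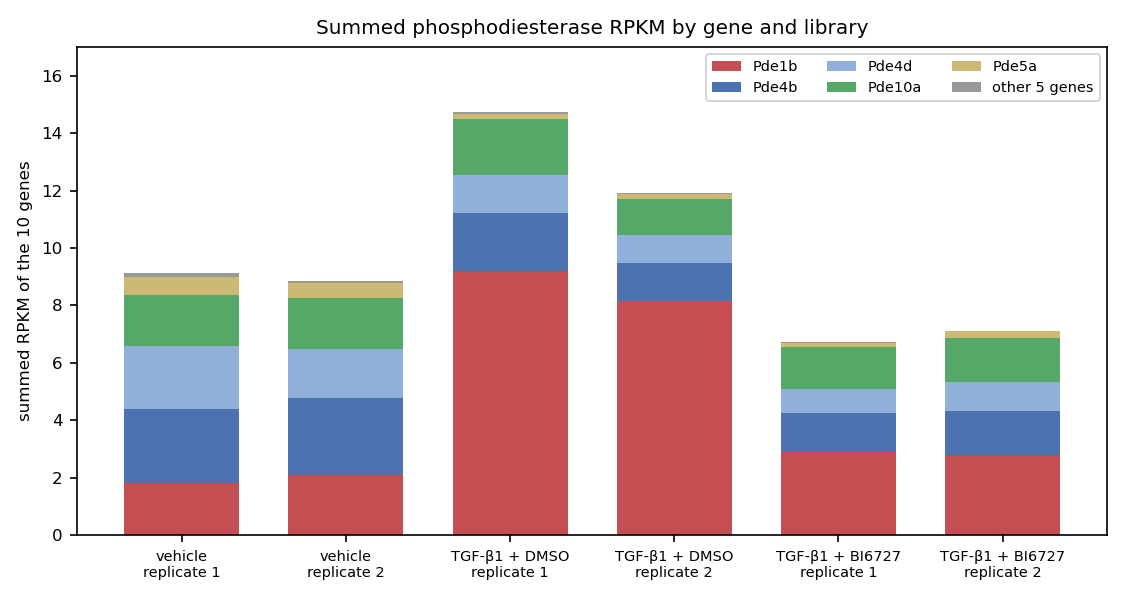
Summed RPKM (y axis, from 0) of the 10 phosphodiesterase genes in each of the 6 libraries (x axis), stacked by gene, with the 5 least abundant genes pooled in grey. The Pde1b segment makes up 62.3% and 68.4% of the bars with TGF-β1 + DMSO, 43.4% and 39.4% with TGF-β1 + BI6727 and 20.0% and 23.8% in vehicle.

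The 14 other PDE genes were given as a comparison. Of these, 5 were tested, Pde4a, Pde6d, Pde7a, Pde8a and Pde8b, and 0 of the 5 passed the threshold in any comparison. Pde6d, which encodes a prenyl-binding chaperone rather than a catalytic enzyme, had the highest RPKM of the 24 genes in every group (38.2, 33.3 and 32.8 in vehicle, DMSO and BI6727). Among catalytic genes, the cAMP-specific Pde7a was at 3.69, 3.56 and 3.22 RPKM and Pde4a at 2.95, 2.33 and 2.35, both above Pde1b in vehicle and both below it with DMSO. With BI6727, Pde1b lay between them. Pde8a, a high-affinity cAMP enzyme, had 1 and 0 counts in vehicle, 17 and 6 with DMSO, and 12 and 24 with BI6727, with an adjusted p of 0.0335 and 0.0150 against vehicle.

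The genes that make, sense and transmit cyclic nucleotides were taken from lists of the pathway. Of 8 cyclase genes tested of 21, 1 passed with TGF-β1 + DMSO against vehicle: Adcy7, an adenylyl cyclase stimulated by G proteins, which was at 0.303 and 0.357 CPM in vehicle, 14.2 and 7.06 with DMSO, and 8.98 and 8.30 with BI6727. Every TGF-β1 library was far above the vehicle libraries, and the 2 TGF-β1 groups overlapped. Adcy7 rose by 4.98 on the log2 scale with DMSO (adjusted p = 0.000168) and by 4.68 with BI6727 (adjusted p = 0.000221), the latter lost without vehicle replicate 1 (0.0108). Its vehicle level rests on 6 and 8 counts.

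Among 12 effector genes tested of 16, Prkar2b and Rapgef3 fell with TGF-β1 + DMSO and with TGF-β1 + BI6727 against vehicle. Prkar2b, a regulatory subunit of protein kinase A, was at 189 and 186 CPM in vehicle, 60.3 and 55.2 with DMSO, and 61.1 and 56.4 with BI6727. Its log2 fold change was -1.70 and -1.68 against vehicle (adjusted p = 3.06e-05 and 3.22e-05) and 0.02 between the TGF-β1 groups, which overlapped. Rapgef3, which encodes the cAMP sensor Epac1, was at 8.49 and 9.46 CPM in vehicle, 3.87 and 3.90 with DMSO, and 2.64 and 3.84 with BI6727 (log2 fold change -1.21 and -1.45, adjusted p = 0.00850 and 0.00360). Both calls of Rapgef3 were lost without any 1 of the vehicle or BI6727 libraries, with adjusted p up to 0.0794 and 0.0457, and 6.11% of its exonic bases overlapped 2 antisense genes, whose reads cannot be told apart without strand.

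Prkg2, a cGMP-dependent protein kinase, was at 187 and 219 CPM in vehicle, 390 and 396 with DMSO, and 417 and 412 with BI6727. Both TGF-β1 groups were above vehicle. It rose with BI6727 (log2 fold change 1.03, adjusted p = 0.000403) and with DMSO fell just short of the fold required (0.95, adjusted p = 0.000645). The former call was lost without vehicle replicate 1 (0.92, adjusted p = 0.0173), BI6727 replicate 1 (0.0109) or BI6727 replicate 2 (0.0104), and with the length trend removed the latter passed (1.02).

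Of 8 receptor and transport genes tested of 14, 2 fell against vehicle in both TGF-β1 groups, and both encode prostanoid receptors that raise cAMP. Ptgir, the prostacyclin receptor, was at 9.30 and 7.81 CPM in vehicle, 0.716 and 0.611 with DMSO, and 1.54 and 1.31 with BI6727. The 3 groups did not overlap. Its log2 fold change was -3.68 and -2.59 against vehicle (adjusted p = 9.42e-05 and 0.000308) and 1.09 for BI6727 against DMSO (adjusted p = 0.571). Without vehicle replicate 1, the call with BI6727 was lost at an adjusted p of 0.0101.

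Ptger4, the prostaglandin receptor EP4, was at 13.0 and 14.2 CPM in vehicle, 4.68 and 5.27 with DMSO, and 5.84 and 6.05 with BI6727 (log2 fold change -1.45 and -1.19 against vehicle, adjusted p = 0.000957 and 0.00228). Both vehicle libraries were above the other 4. The call with DMSO was lost without vehicle replicate 1 or 2 (adjusted p = 0.0147 and 0.0182), and that with BI6727 without any 1 of the vehicle or BI6727 libraries (up to 0.0350). Other genes overlapped 16.5% of its exonic bases.

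Among 12 CREB-related genes tested of 13, 1 passed against vehicle in both TGF-β1 groups. Fos, an immediate early gene induced by cAMP and by other signals, was at 28.2 and 11.3 CPM in vehicle, 2.00 and 3.20 with DMSO, and 3.41 and 4.21 with BI6727. Its log2 fold change was -2.92 and -2.36 (adjusted p = 0.00245 and 0.00531). The vehicle libraries differed widely from each other, with an SD of 11.96 around a mean of 19.7 CPM. Without vehicle replicate 1, both calls were lost (-2.12 and -1.56, adjusted p = 0.0174 and 0.0412), and the call with BI6727 was also lost without either BI6727 library (0.0599 and 0.0485). Of 11 anchoring genes tested of 12, 0 passed in any comparison, and between BI6727 and DMSO 0 genes of these pathway lists passed.

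**Figure D5:**
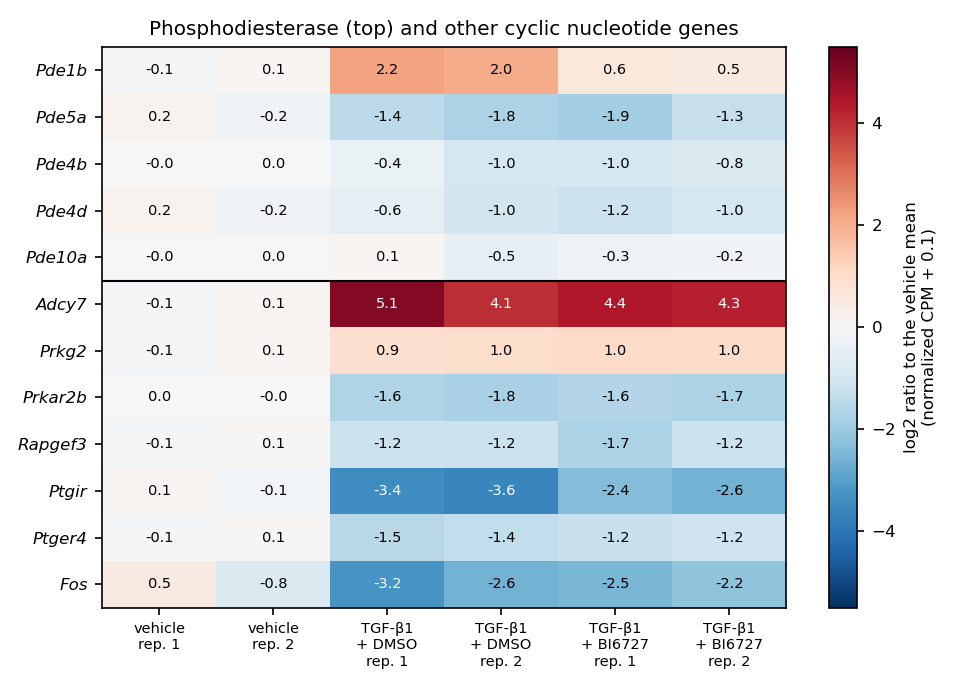
Log2 ratio of normalized CPM to the vehicle mean, after adding 0.1 CPM to both, in each of the 6 libraries (x axis) for 5 members (above the line) and the 7 other pathway genes past the threshold in a comparison (below it). Pde1b is higher in the DMSO than in the BI6727 libraries by more than 1 unit. Ptgir is lower with DMSO (-3.4 and -3.6) than with BI6727 (-2.4 and -2.6). Fos (-3.2 and -2.6 against -2.5 and -2.2) and Ptger4 (-1.5 and -1.4 against -1.2 and -1.2) differ less. Adcy7, Prkg2 and Prkar2b are at like values in both TGF-β1 groups, as is Rapgef3 but for BI6727 replicate 1 (-1.7). None of the 7 passed between BI6727 and DMSO with edgeR (adjusted p = 0.571, 0.845 and 0.824 for Ptgir, Fos and Ptger4).

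The genes whose level across the 6 libraries was most like that of each called member were found by the root mean square difference of log2 values centred on their mean, over 14603 genes. For Pde1b the nearest was Gper1 (0.143), which encodes a G protein-coupled receptor for estrogen and was itself low, at 0.303 and 0.357 CPM in vehicle, 2.10 and 1.65 with DMSO, and 0.606 and 0.654 with BI6727. For Pde4d it was Lox (0.0654), the collagen cross-linking enzyme lysyl oxidase, at 989 and 790 CPM in vehicle, 648 and 462 with DMSO, and 439 and 450 with BI6727. For Pde5a it was the protocadherin gene Pcdhb6 (0.0886). The median over all genes compared was 0.949, 0.538 and 0.822 for the 3 members.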

How the data were processed

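The data were RNA-seq counts from 6 NIH/3T3 libraries, 2 in each of 3 groups taken from the sample labels. The authors mapped the reads to mm10 with Subjunc and counted them on Gencode genes with featureCounts (Subread 1.6.4 in the submitters' processing notes), and deposited raw counts per gene. The strand setting is not given in the sources used here. Ensembl identifiers were matched to symbols with the Gencode annotation of the reference tables (54723 of 54752 matched). Library totals were 18362378 to 24452153 counts, and the floor of 3 counts in a library corresponded to 0.123 to 0.165 normalized CPM. That floor covers counting error only.

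All groups were compared in 1 fit with edgeR 4.0.16 in R 4.3.3 (quasi-likelihood test, TMM scaling, genes kept by filterByExpr, 14604 genes tested, 3 residual degrees of freedom, no covariate). A gene passed the threshold at a Benjamini-Hochberg adjusted p below 0.01 over all genes tested and a fold change above 2. The filter in the study's methods (10 CPM or more in over 3 samples) would have left out low-expressed phosphodiesterases and was run as an alternative. Other alternatives were DESeq2 1.42.0, its size factors in edgeR, a minimum of 10 counts in total, both of these together (added after the data were seen), a fit of only the groups compared, a replicate block, the same block with the numbers exchanged in the DMSO group (crossed), offsets that removed each library's lowess trend (span 0.3) on exonic length, other thresholds and leaving out each library. CPM were computed on library sizes scaled by TMM, and RPKM are CPM divided by exonic length in kb. The scripts were tested on simulated counts.

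Named genes were all 10 members, the other PDE genes, and from the fixed pathway lists the genes past the threshold in any comparison. One list is not reported here. The members and lists were chosen with earlier results of these data known. Adjusted p-values of the members therefore give their place in the fit of all genes and are not independent evidence, and the position of Pde1b between BI6727 and DMSO was known beforehand. The study's methods mention both 2 replicates in each group and 3 biological replicates of 2 groups, while the labels give 2 libraries in each of 3 groups. Neither says whether these libraries came from separate cultures, so that p-values measure the spread between these libraries only, which may be technical. An exact permutation test of 2 against 2 libraries cannot go below p = 0.333 and was not used. Promoter sequences came from RefSeq (GRCm38.p6).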

Additional observations from a re-analysis of the deposited data

How the results depend on the processing

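With 2 libraries in each group, the calls depended on the spread estimated from few libraries. For TGF-β1 + DMSO against vehicle, 1 member passed in place of 2 with the filter of at least 10 CPM in more than 3 samples, with only the 2 groups compared and with the replicate block. The number was 1 to 3 with any 1 library left out, where the lone library of a group is assumed to vary like those of the others. Between BI6727 and DMSO, 1 member, Pde1b, passed in place of 0 with DESeq2, with a minimum of 10 counts over all libraries, with both of these, with the length offsets and at an adjusted p below 0.05 with a fold above 2, and 0 to 1 passed with any 1 library left out. For TGF-β1 + BI6727 against vehicle, 0 passed in place of 2 with the filter of at least 10 CPM and with the replicate block, 1 with the length offsets, and 0 to 2 with any 1 library left out. The fit with only the groups compared and the one without low genes have fewer libraries and fewer genes by construction, and otherwise the cause was not tested.

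Same-numbered libraries did not deviate together over all genes tested (correlations of -0.04, -0.06 and -0.01). These correlations include genes of low count and the deviating second DMSO library, so that they do not settle whether the numbers pair the libraries. With the replicate block, Pde1b between BI6727 and DMSO was at -1.60 with an adjusted p of 0.0643, Pde5a lost both calls (adjusted p = 0.0162 and 0.0181), and Pde4d lost its call with BI6727 (0.0118), as did Rapgef3 with DMSO (0.0125) and Fos with BI6727 (0.0101). With the crossed replicate block, the numbers of members past the threshold were 2, 0 and 2, as without a block.

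The sign of some values that did not pass also turned. Pde10a for DMSO against vehicle was 0.061 with the length offsets and Pde5a for BI6727 against DMSO was -0.038. With 1 library left out, the log2 fold change of Pde3a ran from -2.06 to 0.87, from -1.40 to 0.59 and from -2.27 to 0.27 in DMSO against vehicle, BI6727 against DMSO and BI6727 against vehicle. That of Pde10a ran from -0.48 to 0.14 in the first and, in BI6727 against DMSO, from -0.38 to 0.23, as Pde4b did from -0.52 to 0.10, Pde5a from -0.33 to 0.32, Adcy7 from -0.73 to 0.29 and Prkar2b from -0.053 to 0.088. Of 264 alternative values of the members' log2 fold changes, 229 kept their direction and side of the threshold.

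Over all genes, the number past the threshold for DMSO against vehicle was 874, and 485 with at least 10 CPM, 1421 with no fold minimum, 1463 without DMSO replicate 1, and 293 and 372 without vehicle replicates 1 and 2. Between BI6727 and DMSO it was 0, and 15 with DESeq2 under either filter, 2 with at least 10 counts in total or at an adjusted p below 0.05, 11 with the length offsets, and 95 and 38 without DMSO replicates 1 and 2. For BI6727 against vehicle it was 908, and 505 with at least 10 CPM, 1531 with no fold minimum, 339 and 423 without vehicle replicates 1 and 2, and 431 and 429 without BI6727 replicates 1 and 2.

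As shares of all 24 PDE genes, which include the abundant Pde6d, in vehicle, DMSO and BI6727, Pde1b was at 3.60, 16.3 and 6.18%, Pde4b at 4.80, 3.16 and 3.07%, Pde4d at 3.59, 2.17 and 2.02%, Pde10a at 3.23, 3.01 and 3.23% and Pde5a at 1.04, 0.345 and 0.405%. Pde1a was at 0.101% in vehicle, Pde3a at 0.0496 and 0.0385% with DMSO and BI6727, and Pde7b at 0.0212% with DMSO. With the length offsets the share of Pde5a among the 10 genes was 1.41% with DMSO. The other shares moved by less than 1 SD. The 4 members that did not pass the filter on low counts could not be compared at this depth, and Pde3a, with 3 to 21 counts in a library, was compared with wide errors only.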
